A study of Macaca mulatta with 60 samples.

Results

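The right atrium (RA), the chamber that receives the systemic venous blood, was measured on 12 of the 60 arrays of the series, with 1 array for each of 12 female rhesus macaque fetuses. Arrays were chosen by their titles, which give tissue, a number, window and treatment. The number was taken as that of the fetus. The comparison set 6 fetuses of bisphenol A (BPA) exposed dams against 6 matched controls with the gestational window as a covariate, and then 3 against 3 within each window. In early gestation (EG, day 50 to day 100) fetuses 1, 2 and 3 were controls and fetuses 4, 5 and 6 were exposed, and in late gestation (LG, day 100 to term) fetuses 7, 8 and 9 were controls and fetuses 10, 11 and 12 were exposed. Each dam took a piece of fruit every day, with 400 µg/kg body weight of deuterated BPA in ethanol for the exposed groups and ethanol alone for the controls. The EG fetuses were delivered by caesarian section and the LG fetuses were born vaginally, so window, age and delivery cannot be told apart. RA cDNA was amplified by PCR before labelling, and the 12 RA samples shared a slide. Because whole tissue was measured, fewer cells of a type and less RNA per cell cannot be told apart.

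BPA is a monomer of polycarbonate plastics and epoxy resins that binds oestrogen receptors weakly and also acts on thyroid and other nuclear receptors. The array carries protein coding transcripts and a large number of small non-coding RNAs of the rhesus genome. Among these, U6 is the small nuclear RNA at the catalytic centre of the spliceosome and is transcribed by RNA polymerase III from a gene family with many copies and pseudogenes. Y RNAs bind the Ro60 protein, box C/D small nucleolar RNAs guide ribose methylation and box H/ACA small nucleolar RNAs guide pseudouridylation of other RNAs, and microRNAs repress their target messages. Small RNAs had fewer probes per transcript than protein coding genes, and copies of a family resemble each other, so which U6 or Y RNA copy gave a signal is uncertain. Copies are named below by family and the last digits of the Ensembl transcript identifier, so that U6-33615 is ENSMMUT00000033615.

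Levels are log2 values from robust multi-array averaging (RMA) within RA, and effects are log2 fold changes (LFC), BPA exposed minus control, so that an LFC of 1 is a doubling. The 12 arrays had medians of 6.99 to 7.11 and a median correlation with the other RA arrays of 0.949 to 0.970, with EG control fetus 3 lowest. The lowest value on an array was 3.28 to 3.39 and the 25th percentile 5.00 to 5.13. Atrial genes were high on every array: Myh6, the alpha myosin heavy chain of atrial muscle, lay at 14.30 to 14.96, BMP10, a growth factor of the fetal right atrium and trabeculae, at 12.07 to 13.53, and KCNA5, an atrial potassium channel, at 8.53 to 9.60. Fetus 3 held the lowest BMP10 and KCNA5 and the highest values of ALAS2, the erythroid haem synthesis enzyme, at 12.33 (7.20 to 9.46 in the others), of the lymphocyte antigen CD52 at 11.95 (7.68 to 9.91) and of the erythroid factor KLF1 at 6.95 (4.33 to 5.41). The smooth muscle myosin MYH11 was at 10.94 in LG control fetus 7 and 11.01 in LG BPA fetus 10 and at 7.00 to 8.75 elsewhere. Of 26149 transcripts, 9329 had an interquartile range of at least 0.5 over the 12 arrays and were tested, and 395 of the 582 transcripts with a description in the study's tables were among them.

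Over both windows, 25 of the 9329 transcripts (0.268%) met the study's criteria, a change of at least 1 LFC either way with a p no larger than 0.01 before adjustment, in a limma fit with the window as covariate. Of these, 9 (0.0965%) were higher and 16 (0.172%) lower in BPA exposed fetuses. Small RNAs made up all 10 that have a description: 7 U6 copies, the microRNA mir-554, the small nucleolar RNA SNORD74 and a Y RNA. Of these 10, 7 are in the study's RA lists, which were chosen by the effect on these arrays (mir-554 is also described from the right ventricle). The other 3 (U6-37759, SNORD74 and the Y RNA) were among 369 tested transcripts described only from other chambers. The 9 small RNA families held 254 of the 395 described transcripts tested, and no described protein coding transcript met the criteria over both windows, although DEFB1, DHRS7C and IFI27L1 did so under some alternatives given below. No transcript in limma's fit had an adjusted p of at most 0.05 (smallest 0.823), 39 had an unadjusted p of at most 0.01 where 1% of those tested is 93.3, and 267 had one below 0.05. Of the 25, 21 lay below the median mean level of all transcripts, against 5721 of all 9329, and 2 (8%) below the 25th percentile, against 19.7%. The count was 43 without fetus 10 and 38 without fetus 12, and between 18 and 37 without any other single fetus.

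Within EG, 41 transcripts (0.439%) met the criteria, 10 higher and 31 lower, and within LG 41 (0.439%), 22 higher and 19 lower. In EG the smallest adjusted p was 1.00 and 220 transcripts had an unadjusted p below 0.05, and in LG the smallest adjusted p was 0.961 and 267 had an unadjusted p below 0.05. No transcript met the criteria in both windows. Across the 9329 transcripts, which are not independent replicates, the EG and LG effects had a Pearson r of −0.00515 and 50.4% had the same sign. The contrast of the LG effect minus the EG effect passed the criteria for 31 transcripts (0.332%), 21 with the higher value in LG, with a smallest adjusted p of 0.998 and 250 unadjusted p-values below 0.05. Groups did not overlap in EG for 6.11% of tested transcripts and in LG for 7.58%, and they were separate in the same direction in both windows for 20 (0.214%). Without fetus 2 the EG count was 81, and without fetus 10 the LG count was 145, of which 115 were lower. The larger direction also turned with single fetuses, to 18 higher and 14 lower in EG without fetus 4 and 15 and 13 without fetus 5. In LG it turned to 12 higher and 25 lower without fetus 9, 22 and 34 without fetus 2 and 23 and 24 without fetus 3. It also turned in LG with array weights (17 higher, 30 lower), with just the 6 LG arrays fitted (18 and 29) and with a trend and robust prior (19 and 20). The LG minus EG count was 47 without fetus 1, 99 without fetus 2 (37 with the higher value in LG) and 63 without fetus 10 (24).

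**Figure D1:**
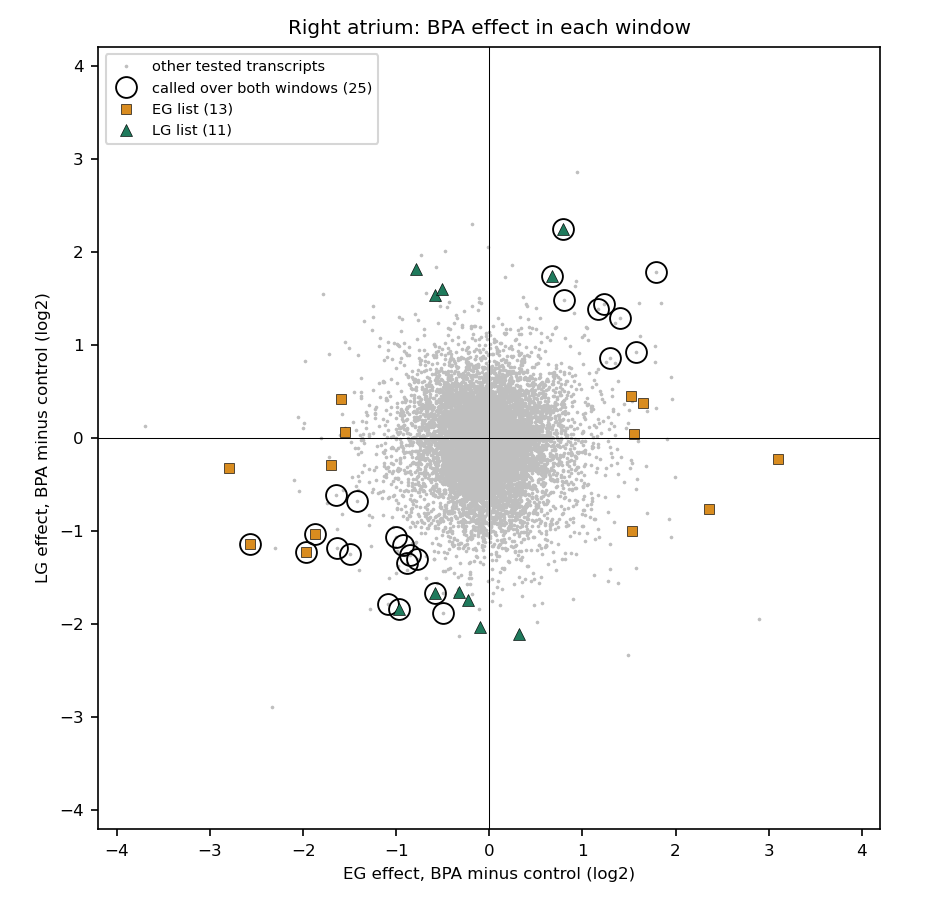
Effect of maternal BPA in RA in EG (x axis) and LG (y axis), as BPA minus control on the log2 scale, for the 9329 tested transcripts. Grey dots are single transcripts, circles mark the 25 that met the criteria over both windows, squares the 13 described transcripts of the EG list and triangles the 11 of the LG list. The cloud has no slope (r −0.00515), and on the axis of the window that did not choose them the members of the EG list lie at −1.22 to 0.45 and those of the LG list at −0.96 to 0.79.

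The study's list of RA for EG holds 13 transcripts in all and that for LG 11, and each was chosen by the effect in its own window. The same thresholds gave 41 transcripts in each window here, of which 14 in EG and 13 in LG have a description in the study's lists. Why the study's lists are shorter was not tested. The other window used other fetuses, so its LFC did not enter that choice. The SE behind every p and call is pooled over both windows, so those counts are not independent of it. In LG, 0 of the 13 EG transcripts met the criteria, 8 had the same sign as in EG, 2 had an unadjusted p below 0.05, and the LG values ran from −1.22 to 0.45. In EG, 0 of the 11 LG transcripts met them, 7 had the same sign, 1 had an unadjusted p below 0.05, and the EG values ran from −0.96 to 0.79. The same sign was seen for 5 of 7 small RNAs and 3 of 6 proteins of the EG list, and for 7 of 9 small RNAs and 0 of 2 proteins of the LG list, beside 50.4% of all tested transcripts.

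Of the 7 called U6 copies, 5 were lower in BPA exposed fetuses, and a pair of them separated the groups in both windows. U6-33615 had levels of 5.32, 6.98 and 6.49 in controls and 3.96, 4.00 and 4.93 in BPA exposed fetuses in EG, and 5.69, 5.76 and 5.72 in controls and 4.90, 3.87 and 4.73 in BPA exposed fetuses in LG. All 3 exposed fetuses lay below all 3 controls in each window (LFC −1.59, SE 0.32, unadjusted p = 0.000178, adjusted p = 0.831 in limma). The exact two-sided permutation test within windows gave p = 0.005, the smallest that 400 arrangements allow. Groups apart in the same direction in both windows always give this p, so it restates that separation, seen for 0.214% of tested transcripts. U6-33615 and U6-34556 are in the RA lists, chosen by their effect on these arrays. U6-34556 was at 7.12, 7.81 and 7.45 in controls and 6.41, 6.63 and 6.44 in BPA exposed fetuses in EG, and at 7.44, 7.94 and 7.26 in controls and 6.21, 5.26 and 5.64 in BPA exposed fetuses in LG. This copy too had no overlap in either window (LFC −1.40, SE 0.26, unadjusted p = 8.82e-05, adjusted p = 0.823, exact permutation p = 0.005), and its p was the smallest of the RA comparison. U6-33615 was in the EG list and had an LFC of −1.97 in EG and −1.22 in LG, while U6-34556 was in the LG list, with −0.96 in EG and −1.84 in LG. All 6 exposed values of U6-33615 lay below 5.00, under the 25th percentile of every array, where distance from background is unknown. Of the transcripts with a call described here or below, the same held for all 6 exposed values of U6-37500 and ENSMMUT00000050017, for the exposed EG values of U6-33771, U6-34045, SNORA58 and Y RNA-36316. It held for the exposed LG values of U6-35944, U6-35056, mir-20a and SNORD74. Among copies that were higher it held for the LG controls of U6-38087 and the EG controls of U6-35618. U6-33615 and U6-34556 met the criteria with any 1 fetus left out, at an LFC of −1.76 to −1.39 and −1.53 to −1.26.

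The other 3 copies that were lower overlapped in 1 window. U6-37500 was at 5.12, 6.56 and 5.55 in controls and 3.75, 4.03 and 3.83 in BPA exposed fetuses in EG, without overlap, and at 5.95, 6.04 and 4.46 in controls and 4.65, 4.40 and 4.31 in BPA exposed fetuses in LG, where control fetus 9 fell among the exposed fetuses (LFC −1.45, SE 0.33, unadjusted p = 0.000516; LFC −1.73 to −1.22 with 1 fetus left out). U6-37079 was at 5.54, 6.24 and 5.70 in controls and 4.89, 5.24 and 5.61 in BPA exposed fetuses in EG, where exposed fetus 6 reached the controls, and at 6.52, 6.17 and 7.17 in controls and 4.80, 5.12 and 4.96 in BPA exposed fetuses in LG, without overlap (LFC −1.12, SE 0.28, unadjusted p = 0.00119); the criteria were not met without fetus 9 (LFC −1.26 to −0.94 with 1 fetus left out) nor with array weights. U6-37759, which the study listed for the right ventricle, was at 6.14, 5.76 and 6.13 in controls and 6.05, 4.02 and 4.68 in BPA exposed fetuses in EG and at 5.50, 7.80 and 5.57 in controls and 4.48, 3.88 and 5.18 in BPA exposed fetuses in LG (LFC −1.43, SE 0.43, unadjusted p = 0.00482). Exposed fetus 4 lay among the EG controls for this copy, and the criteria were not met without fetus 5, 10 or 11 (LFC −1.72 to −1.06 with 1 fetus left out).

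A pair of U6 copies was higher. U6-38087 was at 3.82, 4.51 and 5.14 in controls and 6.23, 5.28 and 4.33 in BPA exposed fetuses in EG, with overlap, and at 4.58, 4.88 and 3.82 in controls and 7.25, 6.85 and 5.91 in BPA exposed fetuses in LG, where every exposed fetus was above every control (LFC 1.52, SE 0.41, unadjusted p = 0.00197; LFC 1.30 to 1.81 with 1 fetus left out). U6-35618 was at 4.84, 4.29 and 4.40 in controls and 4.75, 4.39 and 6.41 in BPA exposed fetuses in EG and at 5.28, 3.98 and 4.31 in controls and 5.81, 5.97 and 7.00 in BPA exposed fetuses in LG (LFC 1.21, SE 0.39, unadjusted p = 0.0069). In EG only exposed fetus 6 stood clear of the controls for this copy, and the criteria were not met without fetus 2, 3, 6, 8, 9, 11 or 12 (LFC 0.98 to 1.44 with 1 fetus left out) nor with array weights. Copies of the same family therefore met the criteria in both directions.

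**Figure D2:**
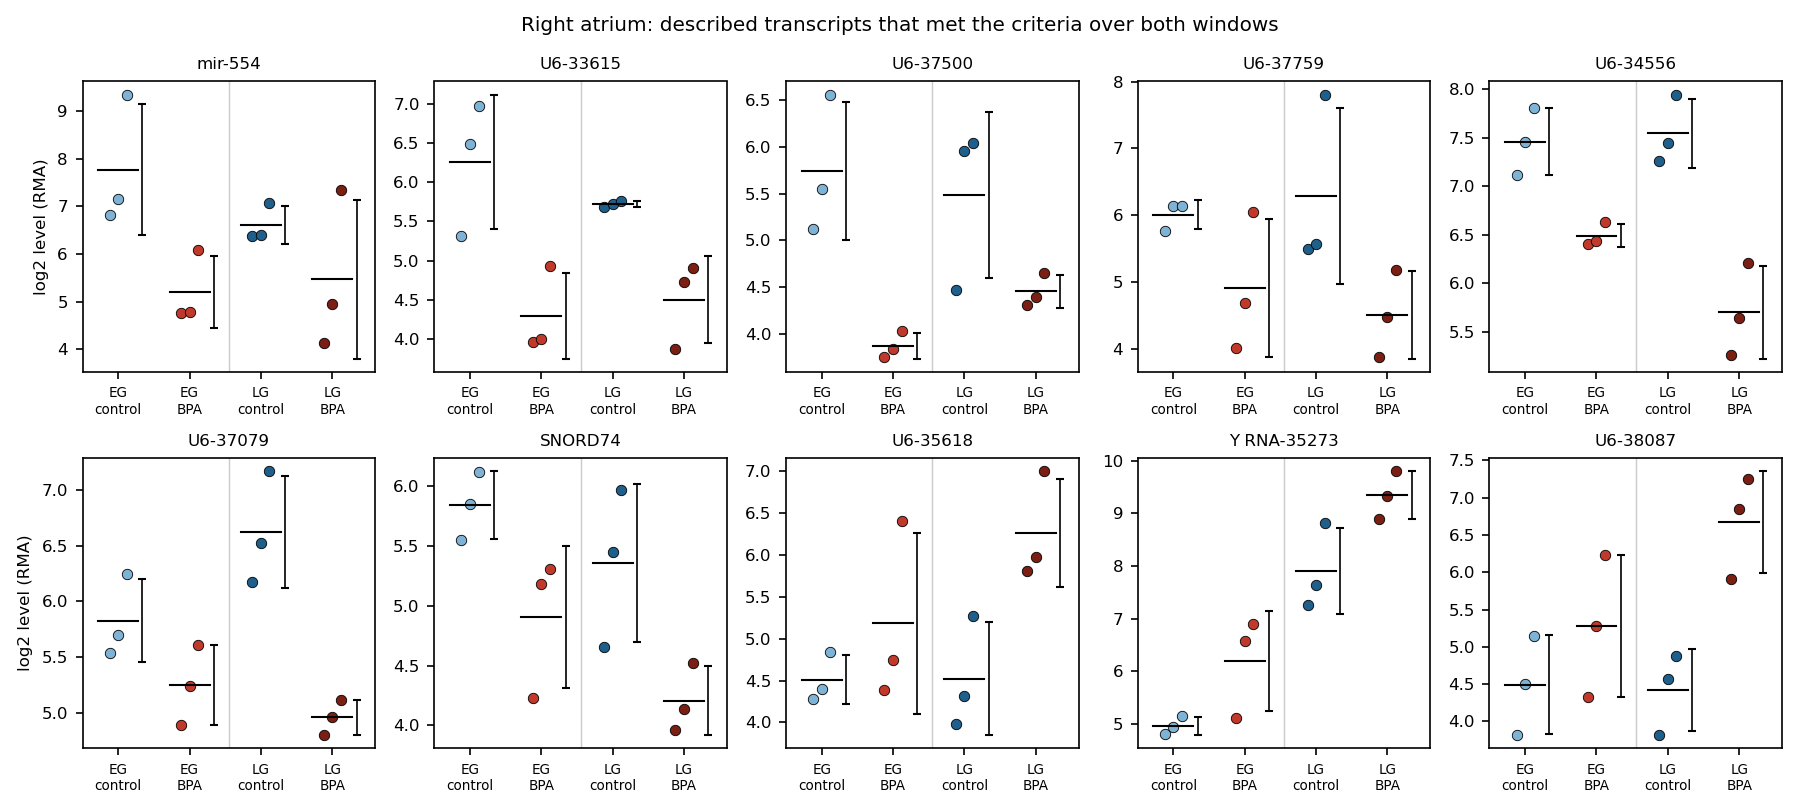
RA levels (log2 RMA value, y axis, a separate scale for each panel) of the 10 described transcripts that met the criteria over both windows, by group (x axis). Points are fetuses, horizontal bars group means and vertical bars ± SD of 3 fetuses. U6-33615, U6-34556 and SNORD74 have exposed and control fetuses apart in both windows.

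Further U6 copies met the criteria in 1 window. In EG, U6-33771 was at 5.49, 8.72 and 6.50 in controls and 3.59, 4.94 and 3.80 in BPA exposed fetuses (LFC −2.79, SE 0.84, unadjusted p = 0.00487) and had an LFC of −0.32 in LG. U6-34045 was at 6.45, 5.71 and 6.77 in controls and 4.60, 4.76 and 4.46 in BPA exposed fetuses in EG (LFC −1.70, SE 0.51, unadjusted p = 0.00503) with −0.29 in LG. Exposed fetuses lay below controls for both copies in EG, and the criteria were not met for the first without fetus 2, 4 or 6 (LFC −3.50 to −1.89 with 1 fetus left out) nor for the second without fetus 1, 3, 4, 5 or 6 (−2.0 to −1.47). The first copy also missed them with array weights. In LG, U6-35944 was at 6.26, 4.81 and 6.83 in controls and 3.97, 3.54 and 4.29 in BPA exposed fetuses (LFC −2.03), U6-35056 at 6.65, 6.51 and 6.44 in controls and 4.91, 4.69 and 4.76 in BPA exposed fetuses (LFC −1.74), and U6-37889 at 8.00, 8.02 and 6.89 in controls and 6.57, 6.18 and 5.18 in BPA exposed fetuses (LFC −1.66). The LG groups were apart for these 3 copies, whose EG effects were −0.10, −0.23 and −0.33. Leaving out 1 fetus ended the LG call in 3 of 12 omissions for U6-35944 (fetus 7, 9 or 11; −2.61 to −1.60), in 6 for U6-35056 (any LG fetus; −1.81 to −1.69) and in 7 for U6-37889 (fetus 3, 5, 6, 7, 8, 11 or 12; −2.03 to −1.26). U6-37889 also missed the criteria under 5 of 7 other settings, without the filter on variation, without the transcripts of low mean level, with a trend and robust prior, after a further quantile normalization and after median centring.

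Over the whole family, 69 of 73 described U6 copies were tested. Of these, 2 were higher and 5 lower by the criteria, against 0.268% of all transcripts, and the median LFC was −0.15 against −0.05 over all 9329. The RA lists themselves put 11 U6 copies into this family on these arrays. Among the 62 copies that were described only from other chambers, 58 were tested, 36 had an LFC below 0 (56.6% of all tested transcripts did), 1 met the criteria and the median was −0.13. The single copies ran from −1.74 to 1.52.

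**Figure D3:**
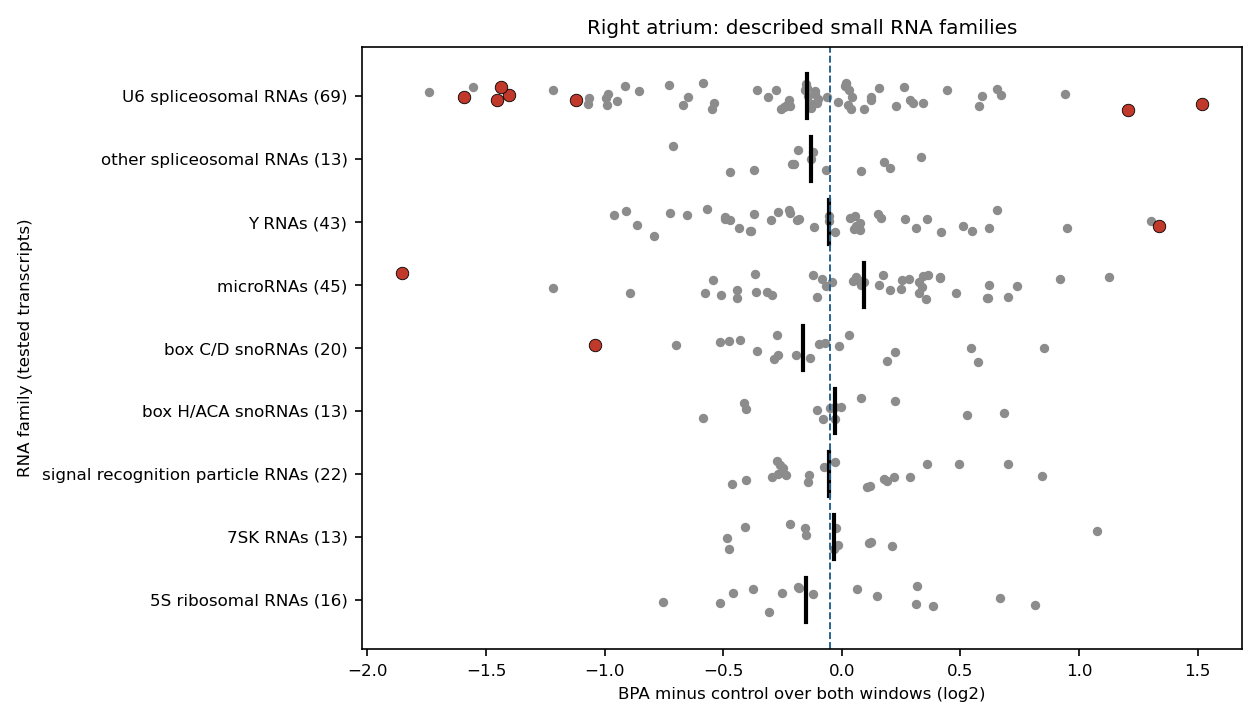
LFC over both windows in RA (x axis, log2) for every tested transcript of 9 described small RNA families (y axis, number tested in brackets). Red points met the criteria, grey points did not, black bars are family medians and the dashed line is the median of all 9329 transcripts (−0.05). Called members lie at both ends of the U6 family, whose median is −0.15.

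A single microRNA of the 45 tested was called over both windows, beside 0.268% of all tested transcripts. It is 1 of 2 transcripts described as mir-554, ENSMMUT00000036920, and was at 7.15, 9.35 and 6.82 in controls and 4.79, 6.08 and 4.75 in BPA exposed fetuses in EG and at 6.37, 6.39 and 7.07 in controls and 4.95, 4.12 and 7.34 in BPA exposed fetuses in LG (LFC −1.85, SE 0.56, unadjusted p = 0.00459, exact permutation p = 0.03). The EG groups were apart, but in LG exposed fetus 12 was above all controls, and the criteria were not met without fetus 2, 4, 6 or 11 (LFC −2.35 to −1.43 with 1 fetus left out). The other mir-554 transcript (ENSMMUT00000049665) had an LFC of −0.04 (SE 0.63) and was not called. The LG list holds mir-20a, which was at 7.34, 6.44 and 4.34 in controls and 4.34, 3.78 and 3.69 in BPA exposed fetuses in LG (LFC −2.11, SE 0.69, unadjusted p = 0.00866), where control fetus 9 and exposed fetus 10 had the same rounded value, and its effect in EG was 0.32. The mir-20a call did not hold without fetus 1, 7, 8, 10, 11 or 12 (LFC −2.96 to −1.46), nor without the filter on variation. Of 54 described microRNAs 45 were tested, 28 with an LFC above 0 (43.4% of all tested transcripts), and the median was 0.09. The study's mir-205 had an LFC of 0.26 (SE 0.40) and mir-224 of 0.05 (SE 0.24) over both windows, with mir-224 at 3.49 to 4.57 near the foot of the scale.

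SNORD74 is a box C/D RNA with 2 described transcripts, of which ENSMMUT00000035047 was at 6.12, 5.85 and 5.55 in controls and 4.23, 5.31 and 5.18 in BPA exposed fetuses in EG and at 5.45, 4.65 and 5.97 in controls and 3.96, 4.14 and 4.52 in BPA exposed fetuses in LG. Exposed fetuses lay below controls in both windows (LFC −1.04, SE 0.28, unadjusted p = 0.00207, adjusted p = 0.999, exact permutation p = 0.005), although neither window alone met the criteria (LFC −0.93 and −1.15). The permutation p again restates the separation. The criteria were missed without fetus 1, 4, 9 or 10 (LFC −1.18 to −0.89) and after median centring of the arrays. The other SNORD74 transcript (ENSMMUT00000035286) had an LFC of −0.70 (SE 0.65) and was not called. Of 20 tested box C/D RNAs 1 was called, beside 0.268% of all tested transcripts. Their median was −0.16 and 14 were below 0, beside 56.6% of all tested transcripts. The box H/ACA RNA SNORA58 was at 5.04, 6.30 and 7.39 in controls and 4.53, 4.66 and 4.76 in BPA exposed fetuses in EG (LFC −1.59, SE 0.52, unadjusted p = 0.00806) and had an LFC of 0.42 in LG. The box C/D RNA R38 was at 4.21, 4.96 and 5.18 in controls and 6.24, 6.21 and 6.70 in BPA exposed fetuses in LG (LFC 1.60, SE 0.42, unadjusted p = 0.002) and had −0.51 in EG. Groups were apart for each in the window of its list and overlapped in the other. The SNORA58 call depended on 8 fetuses (2, 3, 4, 5, 6, 8, 11 or 12; LFC −2.19 to −1.02) and was lost with array weights and when just the 6 EG arrays were fitted, and the R38 call depended on fetus 7 or 12 (LFC 1.31 to 1.80).

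Y RNA-35273 was higher in exposed fetuses, at 4.94, 5.15 and 4.80 in controls and 6.90, 6.58 and 5.11 in BPA exposed fetuses in EG and at 7.64, 8.82 and 7.25 in controls and 8.90, 9.80 and 9.34 in BPA exposed fetuses in LG (LFC 1.34, SE 0.34, unadjusted p = 0.00137). The LG groups were apart, and in EG exposed fetus 6 lay among the controls. Controls lay at 4.80 to 5.15 in EG and at 7.25 to 8.82 in LG, and without the window covariate it did not meet the criteria, whereas no single fetus ended the call (LFC 1.18 to 1.59). Other Y RNAs met the criteria in 1 window. Y RNA-34493 was at 5.04, 6.00 and 4.89 in controls and 6.79, 6.90 and 6.83 in BPA exposed fetuses in EG (LFC 1.53) and at 6.49, 7.37 and 6.00 in controls and 5.87, 4.70 and 6.28 in BPA exposed fetuses in LG (LFC −1.0). Y RNA-50165 was at 5.69, 4.25 and 5.28 in controls and 7.25, 8.17 and 5.70 in BPA exposed fetuses in LG (LFC 1.97), with −0.73 in EG. Y RNA-36316 was at 5.27, 5.29 and 5.31 in controls and 3.83, 3.82 and 4.00 in BPA exposed fetuses in EG (LFC −1.41), and had −0.17 in LG. Single omissions ended the call for Y RNA-34493 (fetus 1, 3, 4, 5 or 6; LFC 1.32 to 1.88), Y RNA-50165 (8, 9, 10 or 11; 1.40 to 2.64) and Y RNA-36316 (3, 4 or 5; −1.47 to −1.38), and array weights ended it for Y RNA-50165. Of 43 tested Y RNAs 1 was called over both windows, beside 0.268% of all tested transcripts, and the median was −0.06, beside −0.05.

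The remaining small RNA families gave no call over both windows: 13 tested spliceosomal RNAs other than U6, 13 box H/ACA RNAs, 22 signal recognition particle RNAs, 13 7SK RNAs and 16 5S ribosomal RNAs, with medians from −0.15 to −0.03. Signal recognition particle RNA-50671, part of the machine that brings secretory proteins to the membrane, was at 7.00, 6.94 and 6.79 in controls and 7.54, 7.05 and 7.38 in BPA exposed fetuses in EG and at 5.86, 5.27 and 6.62 in controls and 6.70, 7.24 and 7.63 in BPA exposed fetuses in LG. Its groups did not overlap in either window, as for 0.214% of tested transcripts, which is why it is named, and the LFC of 0.84 (SE 0.28, unadjusted p = 0.00967) missed only the fold criterion. In LG alone it met the criteria (LFC 1.27), but not without fetus 7, 8 or 11 (LFC 0.95 to 1.63 over 9 omissions) nor when just the 6 LG arrays were fitted. Without fetus 4, 6 or 12 it varied too little to be tested. A mitochondrial transfer RNA (ENSMMUT00000038278) was at 8.59, 8.92 and 8.25 in controls and 8.13, 8.16 and 7.83 in BPA exposed fetuses in EG and at 8.84, 7.90 and 7.77 in controls and 7.73, 6.19 and 7.20 in BPA exposed fetuses in LG. The exposed fetuses lay below the controls in both windows (LFC −0.84, SE 0.30, unadjusted p = 0.0134), without meeting the criteria.

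Among the 15 called transcripts without a description, 6 were higher and 9 lower, and 2 of the lower ones separated the groups in both windows. ENSMMUT00000049822 was at 7.52, 7.55 and 8.23 in controls and 6.77, 6.56 and 7.33 in BPA exposed fetuses in EG and at 7.66, 7.66 and 7.93 in controls and 7.17, 5.71 and 6.36 in BPA exposed fetuses in LG (LFC −1.11, SE 0.28, unadjusted p = 0.00123; the criteria were not met without fetus 11 (LFC −1.25 to −0.93 with 1 fetus left out)). ENSMMUT00000050017 was at 5.26, 5.26 and 5.68 in controls and 4.35, 4.26 and 4.60 in BPA exposed fetuses in EG and at 4.82, 5.40 and 4.82 in controls and 4.46, 3.65 and 3.75 in BPA exposed fetuses in LG (LFC −1.03, SE 0.23, unadjusted p = 0.000452; the criteria were not met without fetus 3, 8, 11 or 12 (LFC −1.14 to −0.94 with 1 fetus left out)). The latter call was also lost after median centring. The share of tested transcripts with groups apart in both windows was 0.214%, and these 2 were chosen for it. The sources used here do not pair these identifiers with a gene.

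Of the 6 protein coding transcripts of the EG list 5 were higher in exposed EG fetuses, and their LG effects were between −0.76 and 0.45. IFI27L1, a mitochondrial relative of the interferon induced protein IFI27, was at 6.67, 7.21 and 6.03 in controls and 8.88, 8.72 and 9.40 in BPA exposed fetuses in EG (LFC 2.36, SE 0.56, unadjusted p = 0.000912), and the exposed fetuses were well above the controls. In LG it was at 9.32, 6.69 and 7.45 in controls and 7.53, 7.01 and 6.63 in BPA exposed fetuses (LFC −0.76), where control fetus 7 was the highest. Without fetus 7 the effect over both windows was 1.30 and met the criteria, against 0.80 (unadjusted p = 0.173) with all fetuses and 0.49 without fetus 3. MYO16, an unconventional myosin known from neurons, was at 5.98, 4.94 and 5.70 in controls and 6.66, 7.41 and 7.23 in BPA exposed fetuses in EG (LFC 1.56, SE 0.37, unadjusted p = 0.000862) and at 6.75, 6.33 and 6.23 in controls and 6.19, 6.44 and 6.81 in BPA exposed fetuses in LG (LFC 0.04). EG controls were below all other fetuses, at 5.98 or less, while exposed EG fetuses lay at 6.66 or more. The EG calls of IFI27L1 and MYO16 held with any 1 fetus left out (LFC 2.06 to 2.65 and 1.26 to 1.78).

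DEFB1, the epithelial antimicrobial peptide beta-defensin 1, was at 9.86, 9.18 and 7.90 in controls and 10.75, 10.57 and 10.58 in BPA exposed fetuses in EG (LFC 1.65, SE 0.45, unadjusted p = 0.00271) and at 10.60, 11.04 and 9.89 in controls and 11.03, 10.78 and 10.86 in BPA exposed fetuses in LG (LFC 0.38). Over both windows its LFC was 1.01 with unadjusted p = 0.0111, just outside the criteria, which it met with a trend and robust prior, after median centring, with 1 mean per group and without fetus 1 or 8. DHRS7C, a short chain dehydrogenase of the sarcoplasmic reticulum in striated muscle, was at 11.31, 11.27 and 9.56 in controls and 12.47, 12.22 and 12.01 in BPA exposed fetuses in EG (LFC 1.52, SE 0.44, unadjusted p = 0.00366) and at 12.10, 12.48 and 11.86 in controls and 12.40, 12.68 and 12.70 in BPA exposed fetuses in LG (LFC 0.45). Its LFC over both windows was 0.98 with unadjusted p = 0.00889, and here the fold was just too small. It met the criteria after a further quantile normalization, after median centring and without fetus 1, 8 or 10. In both genes EG control fetus 3, the array with high ALAS2 and CD52 and low BMP10, held the lowest value of all 12. Without it the EG effects were 1.11 (unadjusted p = 0.016) for DEFB1 and 0.94 (unadjusted p = 0.0183) for DHRS7C, which did not meet the criteria, and the effects over both windows were 0.70 and 0.67. The part of the blood cell markers in these results was not tested. The DHRS7C call in EG was also lost without fetus 4 or 5 and when just the 6 EG arrays were fitted.

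A receptor with the transmembrane helices of odorant and other G protein coupled receptors (ENSMMUT00000020971) was at 6.05, 5.09 and 5.88 in controls and 11.51, 7.04 and 7.76 in BPA exposed fetuses in EG (LFC 3.10, SE 0.82, unadjusted p = 0.00207). All exposed EG fetuses were above the controls, but fetus 4 stood far above the other two, and the LG values of 5.20 to 6.19 overlapped (LFC −0.23). When fetus 4, 5 or 6 was left out the transcript no longer varied enough to be tested, and without fetus 2 it missed the criteria (LFC 2.80 to 3.28 over 9 omissions). Leucine-rich repeat-containing protein 7, a scaffold protein of synapses, was the only protein coding member that was lower, at 8.00, 7.20 and 8.65 in controls and 5.69, 6.30 and 7.21 in BPA exposed fetuses in EG (LFC −1.55, SE 0.48, unadjusted p = 0.00615). Control fetus 2 and exposed fetus 6 overlapped here, and the LG effect was 0.06. The call was not met without fetus 1, 3, 4 or 5 (LFC −1.95 to −1.19) nor when just the 6 EG arrays were fitted.

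Both protein coding transcripts of the LG list belong to the genes that cells switch on quickly after a stimulus. NR4A1, an orphan nuclear receptor of this kind, was at 8.95, 8.79 and 7.15 in controls and 11.20, 9.63 and 9.50 in BPA exposed fetuses in LG (LFC 1.82, SE 0.56, unadjusted p = 0.0057) and at 7.15, 6.75 and 6.97 in controls and 6.98, 5.58 and 5.96 in BPA exposed fetuses in EG (LFC −0.79). APOLD1, an endothelial early response gene, was at 5.42, 6.16 and 5.31 in controls and 8.08, 6.90 and 6.52 in BPA exposed fetuses in LG (LFC 1.54, SE 0.44, unadjusted p = 0.00355) and at 5.64, 5.20 and 6.28 in controls and 4.92, 5.24 and 5.22 in BPA exposed fetuses in EG (LFC −0.58). The LG groups were apart for both, exposed fetus 10 was the highest for both, and the EG effects had the opposite sign. The contrast of LG minus EG was 2.60 for NR4A1 and 2.12 for APOLD1. The LG effect that chose both genes is part of it, so a test of this contrast is not independent of that choice. Without fetus 10 the LG effects were 1.27 and 1.08 and missed the criteria, as they did without fetus 9, and for APOLD1 without fetus 7. The NR4A1 call was also lost with array weights and when just the 6 LG arrays were fitted. Fetus 10 and control fetus 7 held the highest MYH11, whose part in these results was not tested. Of 5 tested genes of this kind, all 5 had an LFC above 0 over both windows (median 0.35), beside 43.4% of all tested transcripts, and 0 were called. The other 3, CTGF, SGK1 and RND1, had LG effects of 0.75, 0.23 and 0.55. NR4A1 and APOLD1 were put in this group with their RA effect known, and the median of the other 3 was 0.32.

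**Figure D4:**
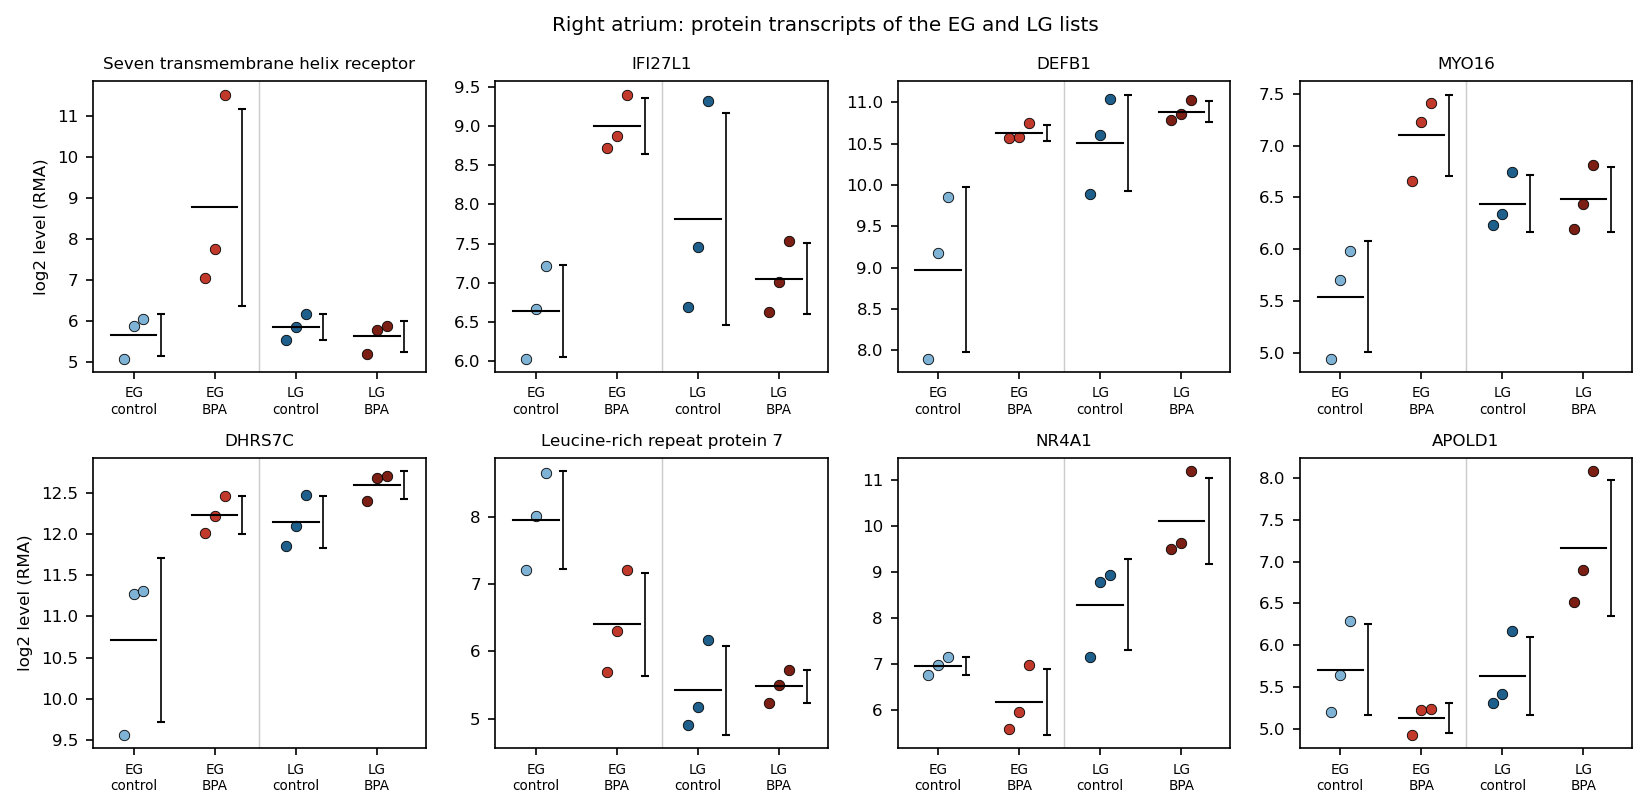
RA levels (log2 RMA value, y axis, a separate scale for each panel) of the 8 protein coding transcripts of the EG and LG lists, by group (x axis). Points are fetuses, horizontal bars group means and vertical bars ± SD of 3 fetuses. Differences seen in EG (IFI27L1, MYO16, DEFB1, DHRS7C) are small or turned in LG, and those of NR4A1 and APOLD1 in LG have the opposite sign in EG.

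The genes that the study followed in the heart gave no call on the RA arrays. Adam12, a metalloprotease of matrix remodelling, was at 8.67, 8.19 and 8.48 in controls and 8.71, 8.70 and 8.50 in BPA exposed fetuses in EG and at 6.97, 7.59 and 7.38 in controls and 8.14, 7.96 and 7.51 in BPA exposed fetuses in LG. Its LFC over both windows was 0.37 (SE 0.22, p = 0.114 in limma, exact permutation p = 0.05). Exposed fetuses were higher on average in both windows (0.19 and 0.55), with overlap in each. The study also measured the long Adam12 isoform by quantitative PCR in more LG fetuses, and reported it as increased in RA. Thrb, the beta thyroid hormone receptor, had an LFC of 0.22 (SE 0.25) and Pdk4, the kinase that restrains glucose oxidation, of 0.03 (SE 0.31). Myh6 (LFC 0.08, SE 0.13) and Gyg1, the primer of glycogen synthesis (LFC 0.13, SE 0.13), varied too little to pass the filter, so their effects come from a fit over all 26149 transcripts. Myh6 lay near the top of the scale, and the scanner gain was set so that some probes saturated. Saturation of the Myh6 probes was not analysed here. NIPA-like protein 1, a magnesium transporter, was chosen after its values were seen, as 1 of the 20 tested transcripts (0.214%) with groups apart in both windows. It was at 6.75, 7.01 and 5.39 in controls and 7.42, 7.30 and 7.36 in BPA exposed fetuses in EG and at 6.12, 6.28 and 6.35 in controls and 6.73, 6.80 and 6.80 in BPA exposed fetuses in LG (LFC 0.75, SE 0.27, unadjusted p = 0.0139), and exposed fetuses were higher. Without fetus 3, which held the lowest value, the LFC was 0.51 (unadjusted p = 0.024 in limma). TNF, the inflammatory cytokine, was at 4.59, 4.27 and 4.47 in controls and 4.66, 4.65 and 4.71 in BPA exposed fetuses in EG and at 4.25, 4.35 and 4.15 in controls and 4.35, 4.66 and 4.46 in BPA exposed fetuses in LG, a difference of 0.24 at the foot of the scale. In LG its control fetus 8 and exposed fetus 10 had the same rounded value, and it did not pass the filter.

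No member of the lists of other cell types and processes was called over both windows, and those called in a window are described above. The tested members were 9 leukocyte genes (median LFC 0.03), 1 erythroid gene (ALAS2, 0.00), 4 cell division genes (−0.02), 9 genes of the extracellular matrix (0.21), 7 of interferon, cytokine and innate defence (0.14), 4 of contraction and cardiac ion channels (0.57), 2 of hormone and retinoid pathways (0.41) and 2 odorant or related receptors (0.65), beside −0.05 for all transcripts. Some of these members were described through the RA lists and so chosen by their effect on these arrays (IFI27L1 and DEFB1 in defence, MYO16 and DHRS7C in contraction, NR4A1 among the hormone genes, and the receptor transcript). Without them the medians were 0.13 over 5 defence genes and 0.09 over 2 genes of contraction, and the single genes left were at 0.31 for hormone pathways and −0.13 for receptors. The summed level of the 11 leukocyte genes was 9.48 to 12.09 in EG controls and 9.37 to 9.81 in exposed EG fetuses, and 9.91 to 10.87 and 10.16 to 10.53 in LG. The 2 erythroid genes summed to 8.13 to 12.36 and 8.13 to 9.21 in EG, and 7.38 to 9.53 and 8.35 to 9.46 in LG. Exposed and control fetuses overlapped in both windows.

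The left atrium (LA) arrays carry the same 12 fetus numbers. LA was amplified in the same way on a slide of its own, and since each tissue was normalized separately only effects were compared. The RA effect minus the LA effect over both windows met the criteria for 21 transcripts (0.225%), 6 with the higher effect in RA and 15 with the lower, with 0 at an adjusted p of at most 0.05 in limma (smallest 1.00) and 154 at an unadjusted p below 0.05. Of these, 3 were U6 copies that were lower in RA. They are in the RA lists, chosen by the RA effect on these arrays, and that effect is part of the difference. The difference is therefore in part fixed by that choice, and its p is not an independent test of a difference between the atria. U6-34556 had an LFC of −1.40 in RA and 0.09 (SE 0.25) in LA, a difference of −1.49 (SE 0.36, unadjusted p = 0.000409). U6-33615 had −1.59 and 0.09 (difference −1.69, SE 0.49, unadjusted p = 0.00263), and U6-37079 −1.12 and −0.03 (difference −1.09, SE 0.32, unadjusted p = 0.00241). In LA these copies had effects within 1 SE of 0. The difference failed the criteria for U6-33615 without fetus 2 or 5 (LFC −2.0 to −1.29) and for U6-37079 without fetus 2 (−1.21 to −0.90). The undescribed ENSMMUT00000050017, named for its RA effect and so under the same limit, also had a lower effect in RA than in LA (−1.03 and 0.14, unadjusted p = 0.00144). Its difference did not meet the criteria without fetus 11 (−1.37 to −0.96 with 1 fetus left out). Without fetus 10 the count of differing transcripts was 35.

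Other transcripts had an LA effect of the same sign and a difference that did not meet the criteria. The called SNORD74 transcript had an LFC of −1.23 (SE 0.40) in LA beside −1.04 in RA, a difference of 0.19 (SE 0.51), and −1.52 in the left ventricle and −0.53 in the right. Y RNA-35273 had 1.09 (SE 0.52) in LA beside 1.34, with 0.82 in the right and 0.43 in the left ventricle. The mitochondrial transfer RNA had −1.01 in LA beside −0.84. For the called mir-554 transcript the LA effect was −0.86 (SE 0.82), while the right ventricle had 1.92 and the left 0.98, the opposite sign. In EG, IFI27L1 had 2.60 in LA, 2.45 in the left ventricle and 2.02 in the right beside 2.36 in RA, and DEFB1 had 0.74, 1.42 and 1.47 beside 1.65. All of these carry the same fetus numbers, so the chambers cannot be counted as separate evidence. Whether a number marks the same animal in the ventricles was not checked, and the ventricles were prepared without amplification.

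**Figure D5:**
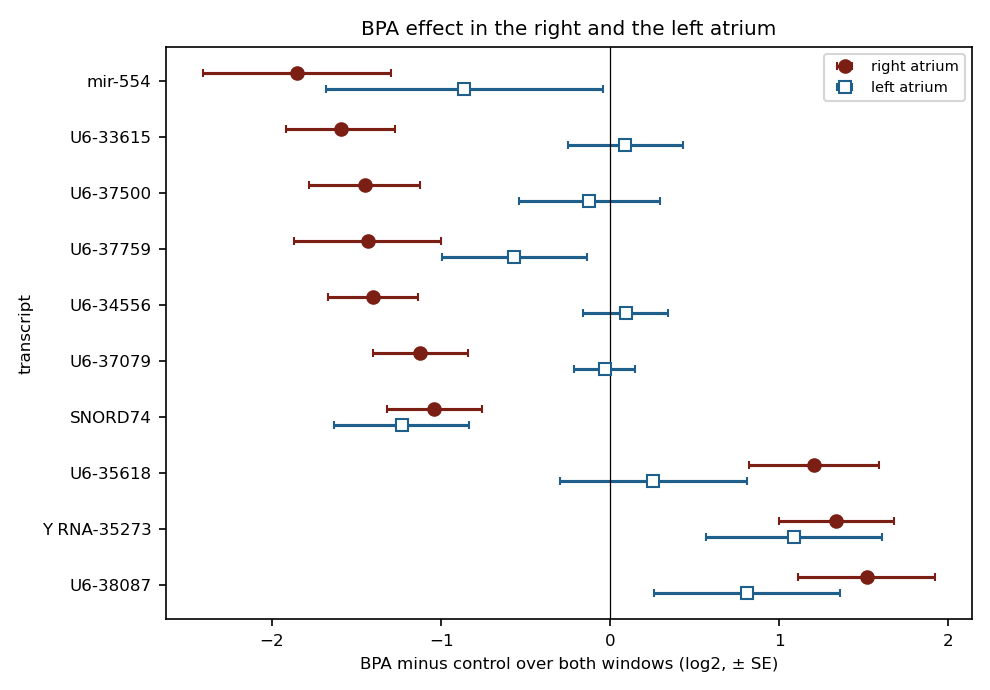
LFC over both windows (x axis, log2, ± SE) in RA (filled circles) and LA (open squares) for the 10 described transcripts that met the criteria in RA (y axis). LA values of U6-33615, U6-34556 and U6-37079 lie at 0 within their SE, and SNORD74 and Y RNA-35273 have similar values in both atria. The 10 were chosen by their RA effect, so a smaller effect in LA is in part fixed by that choice.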

How the data were processed

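Transcript levels were measured in the right atrium (RA) of 12 fetuses, 3 per group, on custom NimbleGen arrays. The deposited log2 values were made by RMA, in which the authors background corrected and quantile normalized the RA probes and took a median polish for each of 26149 Ensembl transcripts. The build in the study's methods is Mmul_1, and no coordinates were used. Scanner intensities were not analysed here, so distance from background is unknown, and precision is limited by the number of arrays. Names come from the description columns of the study's supplementary lists. Of their 606 entries as read here, 66 had an identifier corrected (53 with a surplus zero, 2 with a missing zero, 11 with a missing letter).

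Transcripts whose interquartile range over the RA arrays was under 0.5 were removed, as in the study's methods. With limma 3.58.1 in R 4.3.3 an additive model of window and treatment, a model with 1 mean per group, and one with 8 means for RA and left atrium (LA) were fitted, with eBayes defaults. Criteria were an LFC of at least 1 and an unadjusted p of at most 0.01. Benjamini-Hochberg values are named as adjusted. Exact two-sided permutation tests exchanged treatments within windows (400 arrangements, or 20 with a smallest p of 0.1 in 1 window). The fits were tested on simulated data. Array weights used statmod 1.5.0, and figures matplotlib 3.10.9 in Python 3.11.15.

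Members and lists were chosen with earlier results of these data known. Named transcripts are those of the 2 RA lists, genes the study followed, described transcripts that met the criteria over both windows, up to 2 undescribed ones in each direction with groups apart in both windows, and members of the gene lists that met the criteria or separated the groups. NIPA-like protein 1 and the mitochondrial transfer RNA lie outside this rule and were chosen after their values were seen. For LG the study gives equal numbers of treated dams and fetuses in each group. Nothing states whether EG fetuses of a group shared a dam, or whether fetuses of any group shared a day. The limma p-values set an effect against the spread between arrays of a group, moderated by eBayes. With 1 array per fetus this spread mixes fetal and technical variation.

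A fetus number was taken to mark the same animal in RA and LA, which the titles do not state. Deviations from the group means of the same fetus had a median r of 0.213 between RA and LA, against −0.0167 for different fetuses, and over 0.1 in 10 of 12.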

Additional observations from a re-analysis of the deposited data

Results flagged for a closer look

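For 10 described RA transcripts the LG effect minus the EG effect met the criteria in limma (0.332% of all tested transcripts did), and every one had an adjusted p of 0.998. Of these, 5 (IFI27L1, Y RNA-34493, R38, APOLD1 and NR4A1) are in the RA lists, chosen by the effect in 1 window on these arrays, so their difference is in part fixed by that choice and the count cannot be read against this share. Values lower in LG were those of a protein coding transcript without a name (ENSMMUT00000046184, −3.83, SE 1.28), IFI27L1 (−3.12, SE 0.80), U6-33672 (−2.97, SE 0.95), Y RNA-34493 (−2.53, SE 0.67) and U4-37632 (−1.63, SE 0.52). Values higher in LG were those of a CD177P fragment (ENSMMUT00000029619, 1.81, SE 0.59), small nucleolar RNA R38 (2.10, SE 0.60), APOLD1 (2.12, SE 0.62), NR4A1 (2.60, SE 0.79) and Y RNA-50165 (2.70, SE 0.87). The difference met the criteria with any 1 fetus left out for IFI27L1 (−3.69 to −2.37) and Y RNA-34493 (−2.88 to −2.07), and was lost in 4 to 10 of 12 omissions for the others. It was also lost under 1 or 2 of 6 other settings for ENSMMUT00000046184, U6-33672, the CD177P fragment and Y RNA-50165. No cause of these differences was tested.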

How the results depend on the processing

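At an adjusted p of at most 0.05, limma left 0 transcripts over both windows, in EG, in LG, in LG minus EG and in RA minus LA. Over both windows, p alone without the fold gave 39. Without the filter on variation EG gave 63 and LG minus EG 83, and with array weights they gave 74 and 66. With 1 fetus left out the counts ran from 18 to 43 over both windows, 28 to 81 in EG, 28 to 145 in LG, 24 to 99 in LG minus EG and 14 to 35 in RA minus LA. With the fetus as replicate block (paired RA and LA), RA minus LA gave 28, against 21, and among the single transcripts followed the call was lost for 1 without a description.

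The other settings were within 1.5 times of the counts given, over the 5 comparisons. The share of higher calls moved by over 10 points over both windows (36% to 48% with median centring and 46.7% with array weights), in EG (24.4% to 37.5% with median centring, 36.5% with array weights and 41.0% from its own 6 arrays), in LG (53.7% to 36.2% with array weights and 38.3% from its own 6 arrays), in LG minus EG (67.7% to 53.0% with array weights) and in RA minus LA (28.6% to 45% with median centring). With 1 fetus left out this share ran from 25.7% to 45.5% over both windows, 23.8% to 56.2% in EG, 20.7% to 62.2% in LG, 37.4% to 84% in LG minus EG and 26.3% to 51.7% in RA minus LA. The causes were not tested. Of 25 transcripts called over both windows, 7 met the criteria with any 1 fetus left out, 13 under all other settings (up to 8 each) and 6 under both kinds. Among the called effects of single transcripts that were followed, which are part of all calls, 0 changed sign.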
